A study of Arabidopsis thaliana with 15 samples.

Results

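The dominant suppressor bak1-1D was set against its parent, the brassinosteroid receptor mutant bri1-5, on 6 of the 15 arrays of the series, chosen by genotype label. The 3 arrays of bri1-5/bak1-1D (called bak1-1D below) were compared with the 3 arrays of bri1-5, and 15912 probe sets were tested on them. Both genotypes are in the WS2 background and both carry bri1-5. They were compared as lines, and what else may differ between the lines was not analysed here. The other arrays are 3 each of bri1-5/brs1-1D (brs1-1D below), bri1-5/bri1-1D (bri1-1D below) and the WS2 wild type. Every sample was RNA of whole light-grown seedlings, 5 days old, from plates with 1% sucrose, with 3 biological replicates per genotype by the study's statement. The titles give the replicate numbers used here. The descriptions of all 3 bak1-1D and all 3 brs1-1D arrays read repeat 1, while those of the other genotypes count from 1 to 3 as the titles do. The labels name no hormone treatment. The labels do not say whether more than 1 plant line stands behind bak1-1D.

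Brassinosteroids are growth-promoting steroid hormones of plants. They are sensed at the cell surface by the receptor kinase BRI1, which acts with a smaller co-receptor kinase, BAK1, and the signal ends on transcription factors that raise genes for cell wall loosening and cell expansion. The bri1-5 allele weakens the receptor and gives dwarf plants, and bak1-1D is a dominant allele found by activation tagging, in which added enhancers raise BAK1 and relieve the dwarf form. BAK1 is also a co-receptor of immune receptors that sense microbial patterns. No probe set was named for BAK1 or BRI1 in the gene table used here, so the level of neither was analysed.

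In bak1-1D more probe sets were called higher than lower, and the rises were larger. Of the brassinosteroid-induced list 4 of 5 tested genes rose, EXO and EXPA8 by more than 2-fold. Of the touch and wounding list 3 of 4 rose, CML38 the most, and of the pattern-triggered immunity list 2 of 4, WRKY22 and WRKY53. Among all genes 2.72% were called higher. The lists were chosen with earlier results of these data known, so their counts are no independent support. Of 82 named called probe sets 45 stayed called in every fit without 1 array. Among those that did not were XTH19 and TUB1 of the brassinosteroid-induced list, WRKY53, and STZ, a member of the touch and wounding list. Of 233 genes called higher 36 had a symbol, and of 107 called lower 19 had one. Among those 19 were the cold-regulated gene COR27, the expansin EXPA16 and the defensin gene PDF1.4. The call of PDF1.4 did not hold without some single arrays either. A probe set was called where its Benjamini-Hochberg adjusted p, from limma fitted to all 15 arrays, was under 0.05. All differences are in log2 units, bak1-1D minus bri1-5, each followed by its standard error (SE) from that model, with n = 3 arrays in each genotype.

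The called probe sets numbered 690, or 4.34% of those tested. An unadjusted p under 0.05 was reached by 3037 of the 15912 tested probe sets. Counts at that level below are to be set beside this share. Of these 468 were higher in bak1-1D (2.94%) and 222 lower (1.40%). The called rises had a median of 0.62 and the called falls a median of -0.43, and 72 rises (0.452% of tested probe sets) but 2 falls (0.0126%) were at least 2-fold. The median over all tested probe sets was -0.04. All 3 bak1-1D arrays lay below all 3 bri1-5 arrays for 17.1% of the probe sets and above them for 9.54%. Of the 468 called rises 463 were separate in this way, and of the called falls all 222. Where groups are said below to be separate or not to overlap, this therefore adds little to the call. With the replicate number as a block 858 probe sets were called, 519 higher and 339 lower. The split of the calls moved with scaling, since after each array was centred on its median 583 probe sets were called higher and 157 lower. Leaving out bak1-1D replicate 2 cut the calls to 321 (245 rises, 76 falls), and leaving out bri1-5 replicate 2 cut them to 322 (243 rises, 79 falls). Without bak1-1D replicate 3 the falls numbered 127, and at least 2-fold changes were 86 rises and 6 falls, against 44 rises without bak1-1D replicate 2 and 8 falls without bri1-5 replicate 1. Of the rises 20 were at log2 4 or below on all 3 bri1-5 arrays, and of the falls 9 were so on all 3 bak1-1D arrays.

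**Figure D1:**
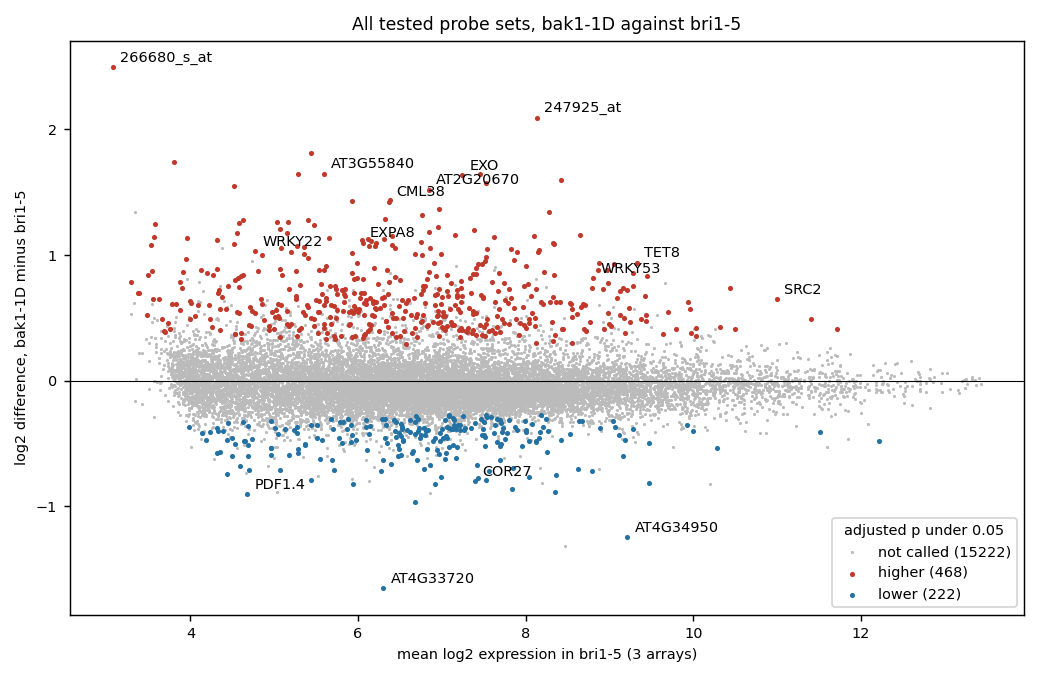
Each point is a tested probe set, with its mean log2 level on the 3 bri1-5 arrays on the horizontal axis and its log2 difference, bak1-1D minus bri1-5, on the vertical axis. The 468 called rises (red) reach 2.50 and the 222 called falls (blue) reach -1.65, while the grey points were not called. The rise of 2.50 is that of 266680_s_at, which passed the filter through its bak1-1D arrays alone.

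The gene table gave 1 gene for 341 of the 690 called probe sets, several for 11 and none for 338. In the first group 55 genes had a gene symbol and 285 a locus code only. The genes with a symbol, 36 higher and 19 lower, are all described below by role. The naming rule gave 45 probe sets, and 38 of the genes with a symbol were added after their values were seen. Beside bri1-5, values are given for the other genotypes, whose comparisons share the bak1-1D arrays. Against WS2 10.0% of probe sets were called (4.88% higher in bak1-1D, 5.14% lower), against brs1-1D 7.98% (3.99% each way) and against bri1-1D 10.1% (5.85% higher, 4.27% lower).

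The brassinosteroid-induced list had 5 tested genes of 22, and 4 of them rose in bak1-1D (median 0.52, against -0.04 over all genes with 1 probe set each, of which 2.72% were called higher). The list was written with earlier results of these data known, so this count describes its members and is no independent support. EXO codes for the extracellular protein EXORDIUM, which promotes cell expansion. It stood at 8.76, 9.25 and 8.63 on the bak1-1D arrays, against 7.72, 6.94 and 7.07 on the bri1-5 arrays. Every bak1-1D array lay above every bri1-5 array, and the difference was 1.64 ± 0.18, or 3.11-fold (adjusted p = 1.86e-04). The WS2 arrays, at 9.35 to 9.69, were still higher, and bak1-1D differed from them by -0.62 ± 0.18 (adjusted p = 0.0398).

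EXPA8 codes for an expansin, a protein that loosens cell walls. Its values were 7.23, 7.36 and 6.88 in bak1-1D, against 6.18, 5.66 and 6.32 in bri1-5, 2.14-fold higher in bak1-1D (SE 0.18 on the log2 scale, adjusted p = 0.00289). The groups did not overlap, and the WS2 arrays stood higher again at 7.83 to 8.27 (bak1-1D minus WS2 -0.85 ± 0.18, adjusted p = 0.00851). XTH19, for an enzyme that cuts and rejoins wall xyloglucan, had 7.40, 7.53 and 7.75 in bak1-1D, against 7.00, 7.09 and 7.04 in bri1-5. The beta-tubulin gene TUB1 had 7.91, 8.05 and 8.06 in bak1-1D, against 7.48, 7.75 and 7.57 in bri1-5. Both sets of groups were separate but close, with differences of 0.52 ± 0.14 (adjusted p = 0.0461) and 0.41 ± 0.11 (adjusted p = 0.0457). ARL, which promotes organ growth, showed overlapping arrays, 7.63, 7.55 and 7.83 in bak1-1D and 7.53, 7.65 and 7.73 in bri1-5 (0.04 ± 0.10, adjusted p = 0.886). All 5 genes were called lower in bak1-1D than in WS2.

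The calls of XTH19 and TUB1 did not hold in every fit that left out a single array. XTH19 missed the threshold without any 1 of the bak1-1D or bri1-5 arrays, WS2 replicate 3, bri1-1D replicate 2 or brs1-1D replicate 3 (adjusted p up to 0.17). TUB1 missed it without any 1 of the bak1-1D or brs1-1D arrays, bri1-5 replicate 1 or 3, WS2 replicate 1 or bri1-1D replicate 3 (adjusted p up to 0.151), and also with the replicate block. EXO and EXPA8 stayed called in all of them. The 7 tested tubulin genes had a median of -0.03, with TUB1 the 1 called member, against 2.72% called higher among all genes.

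Of 7 tested XTH genes 3 rose and 4 were not called, against 2.72% called higher and 1.25% lower among all genes. XTH18 had 8.51, 8.75 and 8.94 in bak1-1D, against 8.16, 7.72 and 8.07 in bri1-5 (0.75 ± 0.14, adjusted p = 0.00557). EXGT-A3, also listed as XTH27, had 8.45, 8.52 and 8.53 in bak1-1D and 7.99, 8.06 and 8.07 in bri1-5 (0.46 ± 0.11, adjusted p = 0.0221). For both genes the groups were separate, and the differences from WS2, -0.20 (adjusted p = 0.404) and -0.12 (adjusted p = 0.551), were not called. XTH18 also stood above the other suppressor lines, by 0.97 ± 0.14 over brs1-1D (adjusted p = 5.73e-04) and 1.44 ± 0.14 over bri1-1D (adjusted p = 1.73e-05). The differences of XTH20 (0.17), XTH16 (-0.02), XTH32 (-0.03) and XTH33 (-0.15) were not called. The call of EXGT-A3 was lost without bak1-1D replicate 2 or 3 or any 1 of the bri1-5 arrays (adjusted p up to 0.0801).

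The 14 tested expansins of 19 did not move as a block. EXPA8 and EXLA2 rose, EXPA16 and EXPA9 fell, and 10 were not called, with a median of 0.23. Over all genes 2.72% were called higher and 1.25% lower. EXPA16 had 5.15, 4.96 and 5.04 in bak1-1D, against 5.68, 5.70 and 5.68 in bri1-5, and the difference of -0.63 ± 0.09 (adjusted p = 6.79e-04) held in every fit without 1 array. Its bak1-1D level was below that of each other genotype, by 0.50 against WS2 (adjusted p = 0.00199), 0.79 against brs1-1D and 1.08 against bri1-1D. EXLA2, of the expansin-like class, had 6.10, 6.20 and 6.22 in bak1-1D, against 5.92, 5.21 and 5.48 in bri1-5 (0.64 ± 0.16, adjusted p = 0.037). EXPA9 had 5.89, 6.06 and 5.99 in bak1-1D, against 6.16, 6.44 and 6.40 in bri1-5 (-0.35 ± 0.10, adjusted p = 0.0489). These last 2 calls were the least stable of the family. EXLA2 lost its call without any 1 bak1-1D array or without bri1-5 replicate 2 or 3 (adjusted p up to 0.178), and EXPA9 lost it in 11 of the 15 fits without 1 array, each with 1 bak1-1D array left out among them (up to 0.194), and after median centring.

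**Figure D2:**
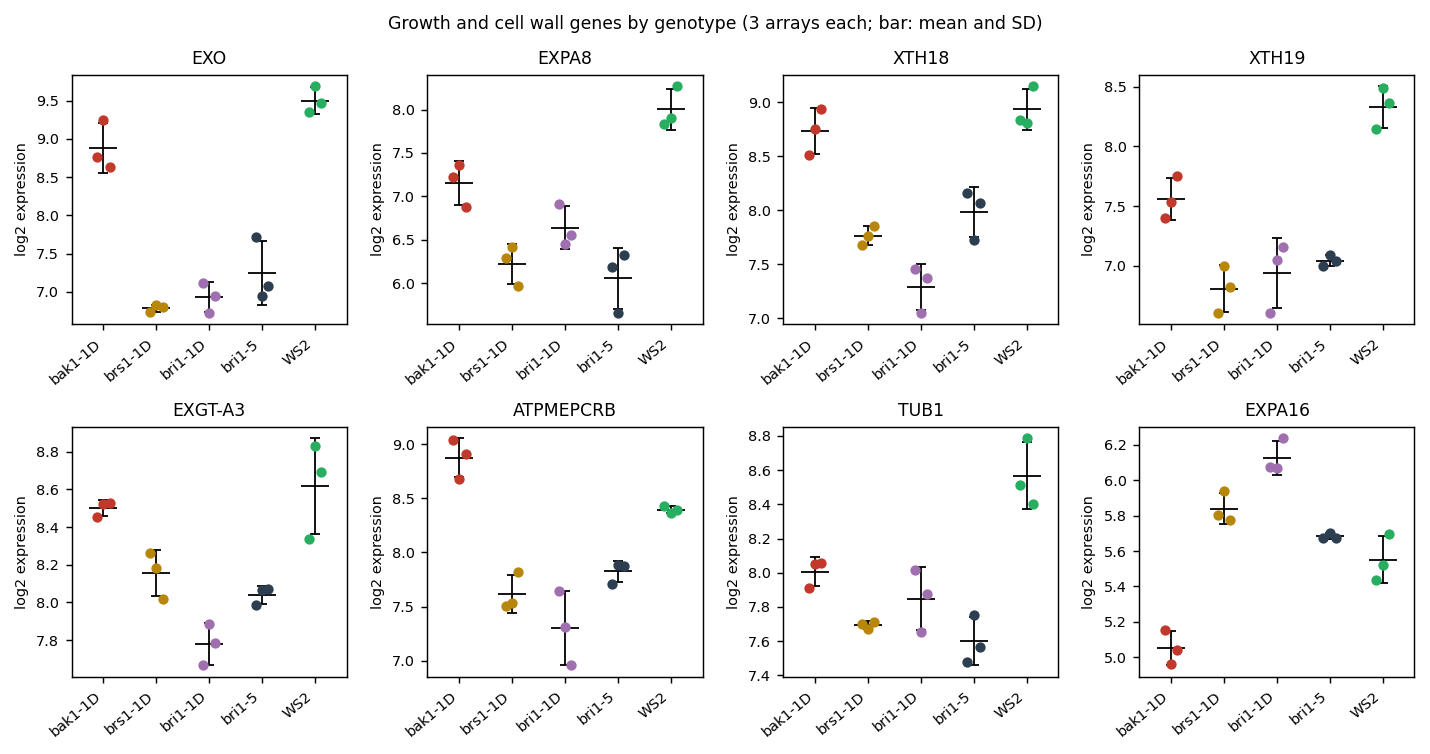
Log2 expression (vertical axis) of 8 growth and cell wall genes on the 3 arrays of each genotype, with the mean and SD as black bars. In the panels of EXO, EXPA8, XTH18, XTH19, EXGT-A3, ATPMEPCRB and TUB1 the bak1-1D points lie above those of bri1-5, and in that of EXPA16 they lie below all other points.

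Of the other wall genes with a symbol, 2 of 4 tested pectin methylesterases, 1 of 6 family 9 hydrolases (GH9) and 1 of 17 TBL genes were called, all higher, in families chosen after the values were seen. The share called higher over all genes was 2.72%. ATPMEPCRB codes for a pectin methylesterase (also listed as PME41), an enzyme that removes methyl groups from wall pectin. It had 9.04, 8.68 and 8.91 in bak1-1D, against 7.71, 7.89 and 7.88 in bri1-5 (1.05 ± 0.14, adjusted p = 6.30e-04). Here bak1-1D exceeded WS2 too, which had 8.36 to 8.43 (0.48 ± 0.14, adjusted p = 0.0401), and both other suppressor lines. A second pectin methylesterase gene, ATPMEPCRD, rose by 0.48 ± 0.09 (adjusted p = 0.00778), and the other 2 tested members of that family differed by -0.05 and -0.02. GH9B13, a glycosyl hydrolase of family 9, rose by 0.40 ± 0.07 and TBL38, of a family that adds acetyl groups to wall polysaccharides, by 0.42 ± 0.08. The 3 bak1-1D arrays of GH9B13 and TBL38 stood at 7.53 to 7.71 and 7.85 to 7.99, above all bri1-5 arrays (7.18 to 7.33 and 7.33 to 7.59) and beside the WS2 arrays (7.56 to 7.66 and 7.79 to 7.92). The calls of all 4 genes held whichever array was left out. None of the 6 tested genes of the cellulose synthase superfamily was called by limma (1 at an unadjusted p under 0.05), with differences from -0.15 to 0.33.

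Of 14 tested IQD genes, a family chosen after the values were seen, 1 rose, 2 fell and 11 were not called, with a median near 0. The shares over all genes were 2.72% called higher and 1.25% lower. IQD proteins bind calmodulin and several sit on microtubules. IQD19 rose to 5.39, 5.38 and 5.16 in bak1-1D, against 4.84, 4.82 and 4.66 in bri1-5 (0.54 ± 0.10, adjusted p = 0.00726). IQD24 fell to 6.01, 5.77 and 5.96, against 6.70, 6.40 and 6.43 (-0.59 ± 0.14, adjusted p = 0.0216), and iqd21 fell to 7.32, 7.12 and 7.20, against 7.82, 7.75 and 7.55 (-0.50 ± 0.11, adjusted p = 0.0131). The groups were separate for all 3. SP1L4, a SPIRAL1-like gene of microtubule-associated proteins, rose by 0.51 ± 0.11 (adjusted p = 0.0129), and TRM28, of the TON1 recruiting motif family, fell by 0.35 (adjusted p = 0.0383). The falls of IQD24 and iqd21 were not called without bak1-1D replicate 2, nor without bri1-5 replicate 1 (adjusted p at most 0.101), IQD24 also without bak1-1D replicate 3 and iqd21 without bri1-5 replicate 2. SP1L4 lost its call without bak1-1D replicate 1 or bri1-5 replicate 2 (up to 0.0755) and TRM28 without bak1-1D replicate 2 or 3, bri1-5 replicate 1 or 2 or brs1-1D replicate 3 (up to 0.163) and after median centring.

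Of the 30 genes on the list of rapid touch and wounding responses 4 were tested and 3 rose, against 2.72% called higher among all genes. The median of the 4 was 0.86, and PUB24 was not called (0.50, adjusted p = 0.159). CML38 codes for a calmodulin-like calcium sensor. It had 7.69, 8.41 and 7.29 in bak1-1D, against 6.51, 6.28 and 6.32 in bri1-5 (1.42 ± 0.22, or 2.68-fold, adjusted p = 0.00177). The WS2 arrays lay at 8.36 to 8.44, with a difference from WS2 of -0.60 ± 0.22 that was not called (adjusted p = 0.0992). CML42, a second calmodulin-like gene, had 8.85, 8.79 and 8.76 in bak1-1D, against 8.14, 7.82 and 8.14 in bri1-5 (0.77 ± 0.15, adjusted p = 0.00638). STZ, a zinc finger repressor of stress responses also listed as ZAT10, had 8.27, 9.05 and 8.07 in bak1-1D, against 7.31, 7.43 and 7.80 in bri1-5 (0.95 ± 0.24, adjusted p = 0.03). The groups were separate for each, with bak1-1D replicate 2 the highest array for CML38 and STZ, and the call of STZ was lost without that array, and without bri1-5 replicate 1 or 2 (adjusted p up to 0.143).

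The other 3 tested genes of the calmodulin and calcium kinase family, CML30 (0.08), CML41 (0.06) and CML43 (-0.05), were not called. SRC2, a gene named for its induction by cold in soybean, had 11.55, 11.82 and 11.57 in bak1-1D, against 11.21, 10.64 and 11.15 in bri1-5 (0.65 ± 0.16, adjusted p = 0.025). Its groups were separate, and its call was lost without bak1-1D replicate 2 or 3 or bri1-5 replicate 2 (up to 0.127).

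Of the immune genes, 2 of the 4 tested on the pattern-triggered immunity list rose, against 2.72% called higher among all genes. WRKY22, a transcription factor downstream of pattern receptors, had 5.66, 6.12 and 5.63 in bak1-1D, against 4.85, 4.50 and 4.96 in bri1-5 (1.03 ± 0.18, or 2.05-fold, adjusted p = 0.0033). It also stood above brs1-1D by 0.87 and bri1-1D by 0.98 (adjusted p = 0.00571 and 0.00215), while its difference from WS2, 0.28 ± 0.18, was not called (adjusted p = 0.339). WRKY53, a WRKY factor of senescence and defence, had 9.70, 9.45 and 9.72 in bak1-1D, against 8.77, 8.76 and 8.90 in bri1-5 (0.82 ± 0.22, adjusted p = 0.042). Unlike the brassinosteroid-induced genes it was also called above WS2, whose arrays lay at 8.32 to 9.00 (0.93 ± 0.22, adjusted p = 0.013). The spread of this gene was wide in other genotypes, 8.29 to 9.35 in bri1-1D, and its call against bri1-5 was lost in 10 of 15 fits without 1 array. Those left out any 1 of the bak1-1D or bri1-5 arrays, WS2 replicate 3, bri1-1D replicate 3 or brs1-1D replicate 1 or 3 (adjusted p up to 0.13). The receptor gene EFR (-0.14) and the receptor-associated kinase gene BIK1 (0.21) were not called. Of 6 tested WRKY genes these 2 were the called ones, with WRKY6 at 0.43, ZAP1 at 0.03, WRKY20 at -0.05 and WRKY47 at -0.31.

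PUB23, a U-box ubiquitin ligase that dampens pattern-triggered immunity, had 7.12, 7.13 and 6.91 in bak1-1D, against 6.37, 6.35 and 6.37 in bri1-5 (0.69 ± 0.13, adjusted p = 0.00571). Its relatives PUB22 and PUB24 differed by 0.26 and 0.50 and were not called, and PUB23 was the 1 of 8 tested U-box genes that was. Over all genes 2.72% were called higher. In limma 4 of the 8, PUB22 and PUB24 among them, were at an unadjusted p under 0.05, all higher. That level was reached, in either direction, by 3037 of the 15912 tested probe sets. Further rises among signalling genes were those of RALFL33, a RALF peptide gene (9.60, 9.93 and 9.69 in bak1-1D, against 9.08, 8.60 and 8.91 in bri1-5, 0.88 ± 0.13), and PTI1-4, a kinase named for interaction with Pto (0.63 ± 0.11). TET8, a tetraspanin of extracellular vesicles, had 10.19, 10.36 and 10.26 in bak1-1D, against 9.45, 9.07 and 9.47 in bri1-5 (0.94 ± 0.11, adjusted p = 2.01e-04). For RALFL33, TET8 and PTI1-4 the groups did not overlap, and the calls, like that of PUB23, held in every fit without 1 array. TET8 and RALFL33 were each the 1 called gene of 7 tested in their families, which were chosen after the values were seen. PTI1-4 was also higher than in WS2 (0.45 ± 0.11, adjusted p = 0.0185). B120, a receptor-like kinase gene, rose by 1.13 ± 0.25 (adjusted p = 0.0173), a call lost without bak1-1D replicate 1 or 2 or bri1-5 replicate 2 (up to 0.0873), while SD1-29, another receptor kinase gene of the S-domain class, fell by 0.44 (adjusted p = 0.023), a call lost without bak1-1D replicate 2 or bri1-5 replicate 2 or 3 (up to 0.125).

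**Figure D3:**
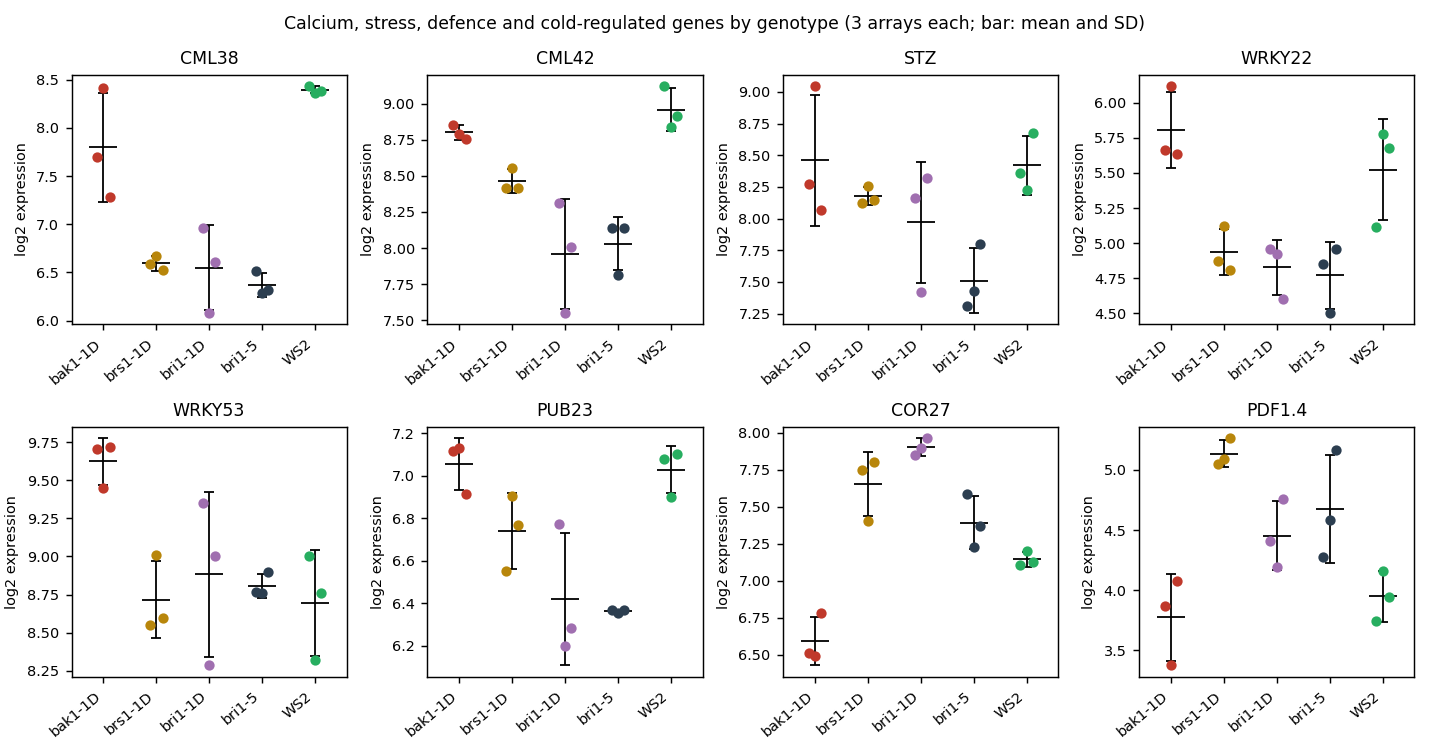
Log2 expression (vertical axis) of 8 genes of calcium, stress, defence and cold responses on the 3 arrays of each genotype, with the mean and SD as black bars. The bak1-1D points lie above those of bri1-5 for CML38, CML42, STZ, WRKY22, WRKY53 and PUB23, and below them for COR27 and PDF1.4.

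Salicylic acid and jasmonate genes gave no call by limma. The 2 tested members of the first list, GRX480 and SAG101, differed by 0.26 and -0.13, and the 2 of the second, THI2.1 and PDF1.2, by -0.29 and -0.28, with 0 of the 4 at an unadjusted p under 0.05. Outside those lists the jasmonate synthesis gene OPCL1 rose by 0.59 ± 0.15 (adjusted p = 0.0386), a call lost without bak1-1D replicate 1 or 2, any 1 bri1-5 array or brs1-1D replicate 1 (up to 0.158). The lipase-like gene DLAH rose by 0.89 ± 0.20 (adjusted p = 0.0191), a call lost without bak1-1D replicate 1 or 2 and without bri1-5 replicate 1 or 3 (up to 0.0978). The defensin gene PDF1.4 fell to 3.87, 3.38 and 4.08 in bak1-1D, against 4.28, 4.58 and 5.17 in bri1-5 (-0.90 ± 0.21, adjusted p = 0.0207). It was the 1 called member of 7 tested defence peptide and lipid transfer genes, against 1.25% called lower among all genes. Its groups were separate, and its call was lost without bak1-1D replicate 2 or bri1-5 replicate 2 or 3 (up to 0.107).

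Few hormone genes other than those of brassinosteroid were tested. On the auxin response list 1 of 4 tested genes was called, against 3.97% of all genes. GH3.3, which joins auxin to amino acids, had 7.69, 7.47 and 7.55 in bak1-1D, against 7.21, 7.25 and 7.20 in bri1-5 (0.35 ± 0.09, adjusted p = 0.0303). HAT2 (0.33), WES1 (0.31) and IAA29 (0.19) were the other tested genes of the auxin response list, not called, with a median of 0.32 for the 4. HAT2 and WES1 were at an unadjusted p under 0.05 in limma. ARR15, a response regulator induced by cytokinin and the 1 tested gene of its family, fell to 3.62, 3.91 and 3.84 in bak1-1D, against 4.32, 4.42 and 4.33 in bri1-5 (-0.57 ± 0.11, adjusted p = 0.00582). Its bak1-1D arrays were below log2 4, the level used for the filter, and its difference from WS2 was 0.04 (adjusted p = 0.855). With a floor at log2 4 the difference from bri1-5 was -0.36 and stayed called. ETP2, an F-box gene of ethylene signalling, fell by 0.28 ± 0.08 (adjusted p = 0.0486), and SPT, a bHLH factor of growth and germination, by 0.35 ± 0.09 (adjusted p = 0.0442). ARR15 stayed called whichever array was left out, while GH3.3, ETP2 and SPT lost their calls in 5, 12 and 9 of those 15 fits (adjusted p up to 0.122, 0.133 and 0.164), those without bak1-1D replicate 1, bak1-1D replicate 3 and bri1-5 replicate 1 among them for each. ETP2 and SPT also lost theirs after median centring. Both brassinosteroid signalling genes tested, BRL1 (-0.29) and BIM1 (-0.24), were lower without a call by limma. Each was at an unadjusted p under 0.05, a level reached by 3037 of the 15912 tested probe sets. No gene of the brassinosteroid synthesis list was measured under its name.

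COR27, a cold-regulated gene, showed a clear fall. It had 6.51, 6.49 and 6.78 in bak1-1D, against 7.58, 7.23 and 7.37 in bri1-5 (-0.80 ± 0.11, adjusted p = 0.00107). The bak1-1D arrays were below all other arrays of the series, and bak1-1D minus WS2 was -0.55 ± 0.11 (adjusted p = 0.00681), minus brs1-1D -1.06 and minus bri1-1D -1.31. GI was the 1 tested gene of the circadian clock list and was not called by limma (-0.17, adjusted p = 0.488).

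Genes of metabolism with a symbol rose and fell. APS3, an ATP sulfurylase of sulphate assimilation, had 7.72, 7.75 and 7.65 in bak1-1D, against 6.78, 6.82 and 6.93 in bri1-5 (0.86 ± 0.10, adjusted p = 1.86e-04), and the WS2 arrays at 8.41 to 8.78 were higher again (-0.87 ± 0.10, adjusted p = 5.85e-05). BGLU28, a beta-glucosidase gene, had 5.00, 4.27 and 4.55 in bak1-1D, against 3.27, 3.75 and 3.55 in bri1-5 (1.08 ± 0.16, adjusted p = 0.00132), so that its bri1-5 arrays were below log2 4, and with a floor at that level the difference was 0.61. Both genes were called in every fit without 1 array. The cytochrome c gene CYTC-2 rose by 0.43 ± 0.07. ICL, the isocitrate lyase that turns stored fat toward sugar in seedlings, fell to 8.17, 8.07 and 8.08 in bak1-1D, against 8.42, 8.57 and 8.59 in bri1-5 (-0.42 ± 0.09, adjusted p = 0.0169), a call lost without bak1-1D replicate 2 or 3 or bri1-5 replicate 2 or 3 (up to 0.0739). ALDH7B4 (-0.35), AAE16 (-0.33) and the sphingolipid lyase gene DPL1 (-0.44) fell as well, with adjusted p of 0.0359, 0.0458 and 0.0295, and each lost its call without any 1 of several arrays (up to 0.168, 0.208 and 0.148), bak1-1D replicates 2 and 3 and bri1-5 replicate 2 among them. AAE16 also lost its call after median centring and with the replicate block.

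The remaining genes with a symbol were AR781 (0.73), pEARLI4 (0.63), the ARF-like GTPase gene ARLA1A (0.50), the ESCRT-related gene VPS60.1 (0.44), the matrix metalloproteinase gene MMP (0.41, or 0.20 and not called with a floor at log2 4) and the P-type ATPase gene ACA.l (0.39), all higher. NRPA2, a subunit of RNA polymerase I (-0.38), the GRAS family gene SCL21 (-0.35), the histone demethylase gene PKDM7D (-0.34) and IYO, or MINIYO (-0.31), were lower. pEARLI4 stayed called in every fit without 1 array (adjusted p up to 0.015). ARLA1A came to the threshold in 1 of them. AR781, VPS60.1, MMP, NRPA2, SCL21 and IYO each lost the call in 4 or 5 of those fits, without bak1-1D replicate 1 among them (adjusted p up to 0.163, 0.144, 0.134, 0.125, 0.135 and 0.101). ACA.l lost it without bak1-1D replicate 1 or bri1-5 replicate 1 (up to 0.0762), PKDM7D without bak1-1D replicate 2 (0.0741), and SCL21 also after median centring.

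Several larger families gave no call among the members matched by name. Genes without such a name in the gene table were not covered, and most of the P450 genes were of the CYP71B group. None of 38 tested UGT glycosyltransferases, 13 cytochromes P450, 13 glutathione transferases, 9 sugar transporters (all of the SWEET family) and 6 bHLH factors was called by limma, with 4, 4, 2, 1 and 0 at an unadjusted p under 0.05. Over all 15912 tested probe sets 3037 were at that level. Their medians were -0.01, 0.05, 0.10, -0.01 and -0.05. The 13 glutathione transferases had differences from 0.01 to 0.31, several of them smaller than their SE. The sugar starvation, NAC, heat shock and Aux/IAA sets had 2, 1, 1 and 2 tested genes, also without a call or an unadjusted p under 0.05, and differences from -0.39 to 0.19.

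**Figure D4:**
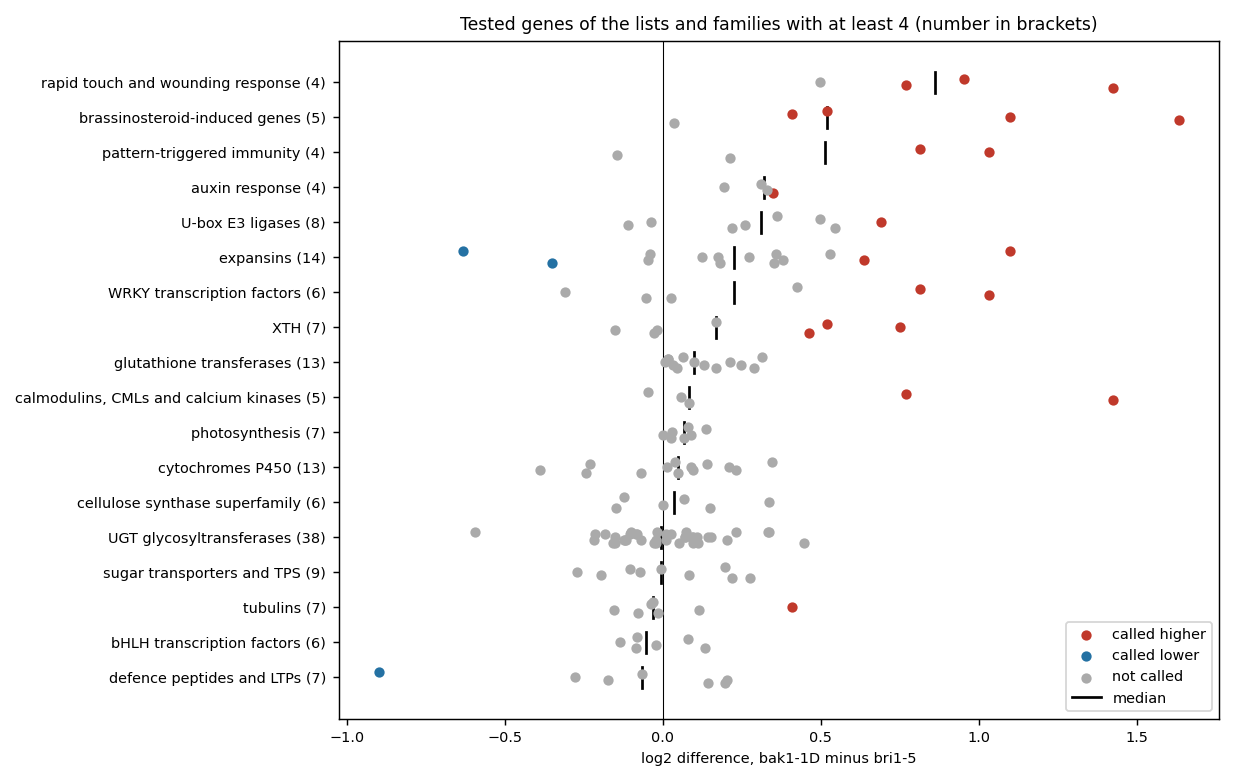
Each point is a tested gene, with its log2 difference, bak1-1D minus bri1-5, on the horizontal axis, and each line of points is a gene list or family with at least 4 tested genes. Black bars mark medians, which run from -0.07 for defence peptides to 0.86 for the touch and wounding list, and the red and blue points are called genes.

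Tissue marker lists were checked because the samples were whole seedlings, in which fewer cells of a type and less RNA per cell cannot be told apart. The 7 tested photosynthesis genes, which mark green tissue, stood at 11.03 to 13.23 in bak1-1D and 10.92 to 13.24 in bri1-5. None was called by limma or had an unadjusted p under 0.05, and their summed level, as log2, was 15.28 to 15.31 in bak1-1D and 15.21 to 15.28 in bri1-5. The 2 tested root hair genes, the expansins EXPA7 (0.53 ± 0.16, adjusted p = 0.0688) and EXPA18 (0.35, adjusted p = 0.182), were not called, both at an unadjusted p under 0.05, with summed levels of 6.41 to 6.86 in bak1-1D and 6.01 to 6.43 in bri1-5. The 2 tested guard cell genes, FMA and SPCH, which act in stomatal development, were lower without a call (-0.38, adjusted p = 0.0683, and -0.27, adjusted p = 0.0908, both at an unadjusted p under 0.05), with summed levels of 5.97 to 6.16 in bak1-1D and 6.30 to 6.50 in bri1-5. An unadjusted p under 0.05 was reached by 3037 of the 15912 tested probe sets. The part of tissue shares in the gene results was not tested. No vascular or seed storage marker was measured under its name.

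Most of the largest changes belonged to genes known here by locus code only, which made up most called genes (285, against 55 with a symbol). AT3G55840 had 7.23, 7.66 and 6.84 in bak1-1D, against 6.10, 5.02 and 5.66 in bri1-5 (1.65 ± 0.29, adjusted p = 0.00391), and AT2G20670 had 8.20, 8.44 and 8.45 in bak1-1D, against 7.20, 6.30 and 7.02 in bri1-5 (1.52 ± 0.23, adjusted p = 0.00175). AT3G04640 had 8.47, 8.83 and 8.48, against 7.59, 7.08 and 7.50 (2.30-fold, SE 0.15 on the log2 scale, adjusted p = 4.59e-04). The groups were separate for these 3, and all 3 genes were called in every fit without 1 array. AT2G31945 (1.28 ± 0.18) was also called above WS2 by 0.60 (adjusted p = 0.0412), brs1-1D by 1.06 and bri1-1D by 1.11. AT4G24380 (1.32), AT5G05300 (1.29), AT1G24140 (1.28), AT5G52760 (1.27) and AT2G41640 (1.18) were the other rises of the first 15 that held whichever array was left out. AT1G78410, AT3G12910, AT3G01830 and AT3G02840, with rises of 1.21 to 1.27, lost their calls in 3, 4, 10 and 5 of those fits (adjusted p up to 0.132, 0.105, 0.199 and 0.13), each without bak1-1D replicate 1 and each without bak1-1D replicate 2. With the replicate block AT3G01830 was not called either. With a floor at log2 4 AT3G01830 and AT3G12910 lost their calls, and the difference of AT3G12910, at 3.33 to 3.90 in bri1-5, was then 0.82.

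Among the falls, AT4G33720 had 4.82, 4.39 and 4.73 in bak1-1D, against 5.97, 6.51 and 6.42 in bri1-5 (-1.65 ± 0.19, adjusted p = 1.86e-04). AT4G34950 had 8.08, 7.78 and 8.05 in bak1-1D, against 9.16, 9.40 and 9.08 in bri1-5 (-1.24 ± 0.12, adjusted p = 9.11e-05). In both genes the groups were far apart relative to their spread. The 2 genes differed in where WS2 stood. For AT4G33720 the WS2 arrays, at 5.78 to 6.10, were well above bak1-1D (-1.26 ± 0.19, adjusted p = 6.61e-04), whereas for AT4G34950 they were at 8.31 to 8.36, near bak1-1D (-0.37 ± 0.12, adjusted p = 0.0667). AT4G27900 (-0.86), AT3G51400 (-0.82), AT5G14230 (-0.82), AT2G05540 (-0.81), AT2G39920 (-0.74), AT5G57760 (-0.72) and AT2G16660 (-0.72) fell in every fit without 1 array, and AT2G39920, at 3.53 to 3.81 in bak1-1D, was not called with a floor at log2 4 (-0.44). AT5G39520 (-0.79 ± 0.21, adjusted p = 0.0429) lost its call in 7 of them, those without bak1-1D replicate 1 or 2, bri1-5 replicate 2 or 3 or any 1 brs1-1D array (up to 0.185), and after median centring.

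**Figure D5:**
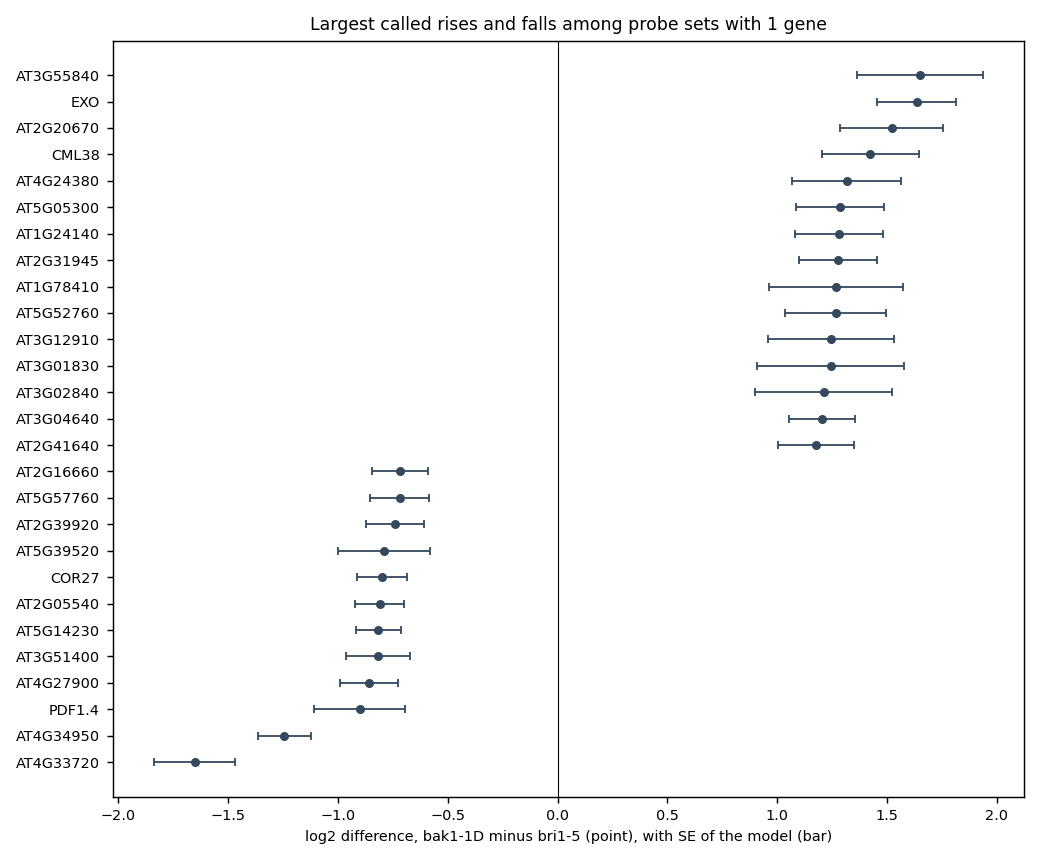
Log2 difference, bak1-1D minus bri1-5 (point), and SE of the model (bar) for genes with a single listing, the top 15 rises and the top 12 falls that were called, n = 3 arrays per genotype. The rises run from 1.18 to 1.65 and the falls from -1.65 to -0.72.

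Of probe sets with no listed gene, 266680_s_at had 5.93, 5.87 and 4.94 in bak1-1D, against 3.04, 3.16 and 3.04 in bri1-5 (2.50 ± 0.18, adjusted p = 2.16e-06). The 12 arrays of the other 4 genotypes lay at 3.00 to 3.45, and the difference from WS2 was 2.30 ± 0.18 (adjusted p = 1.36e-06). Only the 3 bak1-1D arrays were above log2 4, so the probe set passed the filter through them alone. That bak1-1D stood apart from the other genotypes here is therefore no separate result. The other 12 arrays were below log2 4, and with a floor at that level the difference from bri1-5 was 1.58 (adjusted p = 2.45e-04). Its name ends in _s_at, an ending given to probe sets whose probes can match more than 1 transcript. 247925_at had 10.06, 10.52 and 10.09 in bak1-1D, against 8.58, 7.59 and 8.23 in bri1-5 (2.09 ± 0.29, adjusted p = 8.04e-04), and WS2 was at 10.14 to 10.71. The largest falls of this kind were those of 264525_at (-0.97 ± 0.12) and 256598_at (-0.89 ± 0.10). 256598_at, at 7.48, 7.42 and 7.49 in bak1-1D, against 8.22, 8.45 and 8.38 in bri1-5, remained far above WS2 (5.97 to 6.31, difference 1.37 ± 0.10).

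By chromosome, called rises made up 2.02% (chromosome 3) to 3.45% (chromosome 4) of the tested genes, and called falls 0.558% (chromosome 2) to 1.49% (chromosome 5). BAK1 lies on chromosome 4 at locus AT4G33430. In the window of 100 tested genes from AT4G32940 to AT4G35980, which spans that locus, 4 genes were called higher and 2 lower. The windows of 100 genes on that chromosome held 0 to 8 rises and 0 to 3 falls. Those 2 were AT4G33720 and AT4G34950, the largest falls of the comparison among probe sets with 1 gene. On chromosome 4 as a whole 43 of 1245 tested genes rose and 18 fell.

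Median log2 values of tested probe sets ran from 6.75 to 6.82 over the 15 arrays. Across genes, which are not independent replicates, correlations were 0.994 to 0.995 between bak1-1D arrays, 0.991 to 0.995 between bri1-5 arrays and 0.983 to 0.992 between the groups. The control for 25S ribosomal RNA had 7.30, 6.44 and 6.38 in bak1-1D and 7.06, 7.68 and 7.01 in bri1-5 (-0.54 ± 0.28, adjusted p = 0.989 over the controls), and its part in the results was not tested. Some controls moved with the replicate number. The 5S ribosomal RNA control had 6.55, 6.85 and 5.57 in bak1-1D and 6.88, 6.84 and 5.85 in bri1-5, with replicate 3 the lowest in each of the 5 genotypes. A spiked-in thr control probe set for the 5 prime end had 5.33, 4.99 and 4.80 in bak1-1D and 5.40, 4.89 and 4.22 in bri1-5, again with replicate 3 the lowest in every genotype. The same held for other controls. Among them were a thr probe set for the middle, dap probe sets for the 5 prime end and the middle, and a bioB and a GAPDH probe set. Not all probe sets of these controls did so. Another thr probe set for the 5 prime end had 4.35, 4.55 and 4.43 in brs1-1D, with replicate 1 the lowest. The labels do not say what the numbers mark. The actin, GAPDH and ubiquitin control probe sets differed by -0.10 to 0.04.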

How the data were processed

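Affymetrix ATH1 arrays measured whole-seedling RNA of 5 genotypes, 3 arrays each. The deposited log2 values per probe set were made by the authors with GCRMA, per the submitters' processing notes, which corrects background, normalizes and summarizes probes and so can compress low signals. The sources used here give neither its version nor its settings. No counts stand behind array values, and the number of arrays limits the precision.

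Probe sets above log2 4 on at least 3 of 15 arrays were tested (15912 of 22810; 64 array controls left out). limma 3.58.1 under R 4.3.3 took all 15 arrays in a single linear model of genotype means (eBayes without trend), which was tested on simulated data. The spread behind its p-values is that between the 3 arrays of a genotype. Genes came from the platform's table (13513 probe sets with 1 gene, 13436 of them matched to RefSeq, TAIR10.1), and 8661 such probe sets were tested. A gene with several probe sets was represented by the brightest.

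The members, lists and tests were chosen with earlier results of these data known. Named were the 15 largest called rises and 12 largest called falls with 1 gene, all tested brassinosteroid-induced genes, up to 3 called members of other lists, and 4 probe sets without a gene. Families for MYB, ERF and DREB, arabinogalactan proteins, cysteine-rich and wall-associated kinases, receptor-like proteins, aquaporins, SAUR and cyclins matched 0 named probe sets. IQD, pectin methylesterase, RALF, tetraspanin, ARR, TBL and family 9 hydrolase sets were added after the values were seen. Promoter motifs were not analysed here. Alternatives were a replicate block, the 6 arrays alone, other filters and scalings, trend, array weights and each array left out.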

Additional observations from a re-analysis of the deposited data

How the results depend on the processing

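Of 82 named called probe sets, 44 kept their direction and their call under all alternatives that could test them and 45 under every fit without 1 array. No called named difference changed sign in any of the 24 alternatives. With 1 array left out the called probe sets numbered 321 to 736, the called rises 243 to 490 and the called falls 76 to 246. Array weights gave 1256 calls, 669 higher and 587 lower, with 688 of the 690 reported calls among them. Scaling changed the split of rises and falls to 583 and 157 with median centring and to 515 and 179 with quantile normalization. The 6 arrays alone gave 548 calls, of which 471 were shared, and 22 named calls were lost there. A stricter filter at log2 6 gave 636 calls and no filter 632. Median centring ended the calls of EXPA9, ETP2, SPT, AAE16, SCL21, TRM28 and AT5G39520, and no filter or a floor at log2 4 ended 7 and 4 named calls.

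Over all tested probe sets, deviations of same-numbered bak1-1D and bri1-5 arrays correlated at -0.0904, -0.212 and 0.251 for numbers 1, 2 and 3. Arrays of different numbers correlated at -0.195 to 0.281, the highest being bak1-1D replicate 2 with bri1-5 replicate 1. The numbers were not treated as pairs, and whether the arrays pair in another order was not tested. The 5S rRNA control and several other control probe sets were lowest on replicate 3 in every genotype. Thr, dap, bioB and GAPDH probe sets were among these, though not every probe set of those controls. A fit with the replicate block called 858 probe sets, 519 higher and 339 lower, with 664 of the reported calls among them, and ended 3 named calls (AT3G01830, TUB1 and AAE16). The causes of these shifts were not tested. Values near log2 4 lie close to the background of the arrays, which limits 266680_s_at, AT3G12910, AT2G39920, ARR15, BGLU28, MMP and PDF1.4.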
